A study of Mus musculus with 2 samples.

Results

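Solute carriers are a large group of membrane transport proteins, and their genes carry symbols that start with Slc. A total of 214 solute carrier genes were measured here, of 10313 genes in all. They were taken as every gene named by a probe set with a single gene name whose symbol starts with Slc and a digit, leaving out chromosome 14 and the glucose carrier genes Slc2a1 and Slc2a3. Of 224 such Slc genes before these exclusions, 8 lay on chromosome 14. The 10 genes left out included Slc7a7 and Slc39a14 on chromosome 14, at log2 differences of -1.42 and -1.25, and Slc2a1 and Slc2a3 at -0.17 and 0.19.

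Both samples were mouse embryonic stem cells of the 46C line, in which the Sox1 locus holds a green fluorescent reporter. They grew on feeder cells with serum at 15% and leukaemia inhibitory factor (LIF) at 1000 U/ml, and the feeders were taken away before RNA extraction. One sample was labelled as control and the other as overexpressing lincU, a long noncoding RNA. The means of overexpression and the nature of the control are not given in the sources used here, and no probe set was named lincU. Each group had 1 Affymetrix array, so no test between groups was possible, and every difference below describes these 2 arrays.

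Solute carriers move nutrients, ions and metabolites across the plasma membrane and the membranes of organelles, as exchangers, symporters or facilitative carriers. Amino acid carriers feed protein synthesis and growth signalling, and some work as pairs of a heavy and a light subunit. The Slc25 family joins the mitochondrial matrix with the cytosol, and the Slc35 family brings nucleotide sugars into the Golgi and endoplasmic reticulum for glycosylation. Zinc is moved out of the cytosol by Slc30 proteins (ZnT) and into it by Slc39 proteins (ZIP). Embryonic stem cells divide fast and depend on glucose, glutamine and threonine supply.

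Embryonic stem cell identity was checked through its markers. All 6 measured of the 7 listed markers were above the array medians on both arrays, among them Pou5f1 with 13.55 and 13.34 (log2 signal, control first and overexpressing second, an order kept for all pairs of signals below). Their median log2 difference was 0.25, with 4 of 6 higher, Esrrb at 0.65 and Nanog at 0.57, and with Pou5f1 at -0.21. Of 12 listed feeder fibroblast markers 10 were measured, and 9 were above both medians, with a median log2 difference of -0.04. Trophoblast markers had 5 of 6 measured members bright, of which 4 had lower signal in overexpressing cells. Cdx2 differed by -1.89, Krt8 by -1.43, Krt18 by -1.25 and Tfap2c by -0.43, while Eomes differed by 0.20. Of the 5, 3 were at least 2-fold lower, against 1.15% of all bright genes off chromosome 14. Of the 7 primitive endoderm markers 3 were bright, with Lama1 at 1.04 and Amn at -0.76. In bulk RNA, fewer cells of a type and less RNA per cell cannot be told apart, and the part of these other cells in the carrier values was not tested.

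A signal was read against the median of all named probe sets of its own array, 7.96 in control and 7.90 in overexpressing cells on the log2 scale. Probes differ in how strongly they bind, so being above the median describes a probe set and does not rank the RNAs of different genes. Of the 214 solute carrier genes, 71 (33.2%) were above the median on both arrays, against 50.3% of the 9950 genes off chromosome 14. A further 4 were above it in control cells alone and 4 in overexpressing cells alone, and 135 were below it on both arrays. Of the 135, 64 were under the 25th percentile of both arrays, the floor below which signals were not compared.

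The share above both medians differed between substrate classes. In the zinc class 9 of 14 genes (64.3%) were above both medians, as were 9 of 14 nucleotide sugar carrier genes of the Slc35 family and 17 of 27 mitochondrial Slc25 genes (63.0%). Among amino acid carriers, the class that also holds the Slc6 neurotransmitter carriers, 13 of 39 genes were above both medians. The shares were 7 of 23 for monocarboxylate, vitamin, nucleoside and choline carriers and 8 of 37 for inorganic ion carriers. They were 6 of 36 for organic ion, lipid, peptide and other carriers, 1 of 6 for metals other than zinc, and 0 of 16 for sugar carriers. The sugar class was counted without Slc2a1 and Slc2a3, which were themselves above both medians. Slc2a1 had signals of 13.38 and 13.21, and Slc2a3 had 14.07 and 14.26.

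**Figure D1:**
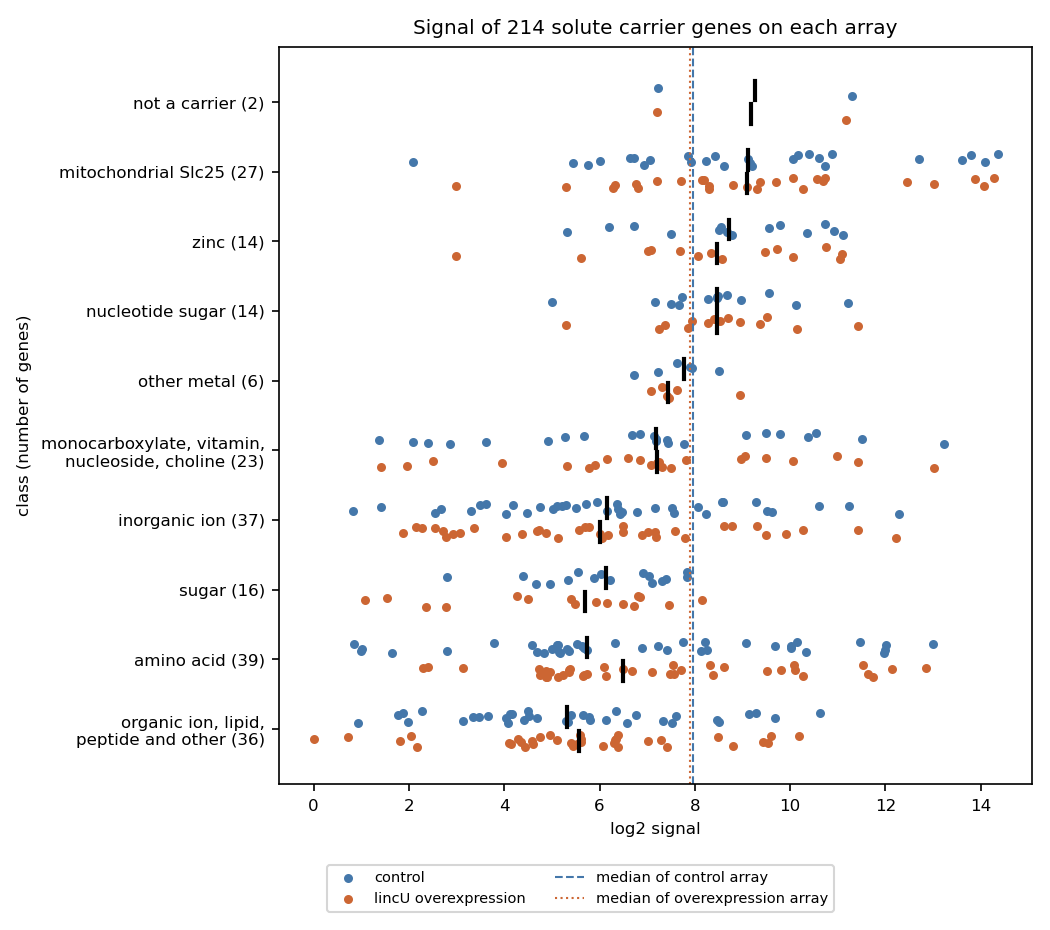
Log2 signal (x axis) of the 214 solute carrier genes by class (y axis), 1 point per gene on the control array and 1 on the lincU overexpression array, with black bars at the class medians and vertical lines at the 2 array medians of 7.96 and 7.90. Most Slc25, zinc and Slc35 genes sit to the right of the lines, and on the control array every sugar carrier gene of the 214 sits to the left.

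Of 46 families by symbol, 20 had no bright gene, that is none above the medians, and these held 59 genes. Among them were the Slc22 organic ion carriers with 14 measured genes, the Slc5 sodium-coupled carriers with 11, the Slc17 carriers with 5 and the 4 hexose carriers of the Slc2 family left after Slc2a1 and Slc2a3 were set aside. Of those 4, Slc2a4, which encodes the insulin-responsive glucose carrier, had signals of 7.04 and 4.50, the latter under the floor, and Slc2a5, the fructose carrier gene, differed by 0.27. All 6 measured Slc30 genes were above the median on at least 1 array.

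A gene was called bright, and its difference read, when its signal reached the array median on whichever array gave the larger value. Where a gene had several probe sets, the one with the highest signal averaged over both arrays was used. By this rule 79 of the 214 solute carrier genes were bright, and 8 of them were bright through 1 array alone. Of the 79, 1 was at least 2-fold higher in overexpressing cells and 0 were lower by as much. Among all 5402 bright genes off chromosome 14, 0.87% passed 2-fold upward and 1.15% downward. At 1.5-fold, 1 member was higher and 5 were lower, against 3.76% and 5.63% of all bright genes. The median log2 difference was -0.06 over the 79 carriers and 0.01 over all bright genes.

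The spread of the carrier genes was set beside that of genes of similar signal. Their log2 differences had an SD of 0.34, against 0.37 for all bright genes. With bright genes divided by mean signal into 3 groups of equal size, the SD in the highest group was 0.21 over 18 carriers and 0.24 over 1801 genes. In the lowest group it was 0.41 over 35 carriers and 0.49 over 1801 genes. Lower signals in overexpressing cells were found for 46 carriers (58.2%) and 49.2% of all bright genes with the deposited scaling. With both arrays centred on their medians the lower share was 53.2% of carriers (42 genes) and 41.4% of all bright genes.

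Repeated measurement came only from genes read by more than 1 probe set. Probe sets of a gene differed from each other in log2 difference by an SD of 0.23 over the 1732 genes with several bright ones, and of 0.19 over the 19 carriers among these. This spread holds no variation between cultures. Of the 79 bright carriers, 40 had a difference larger than 0.23, 16 of them higher and 24 lower. Among all bright genes off chromosome 14, 18.3% were higher and 21.9% lower by more than that. In 14 of the 19 carriers all bright probe sets had the same sign.

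**Figure D2:**
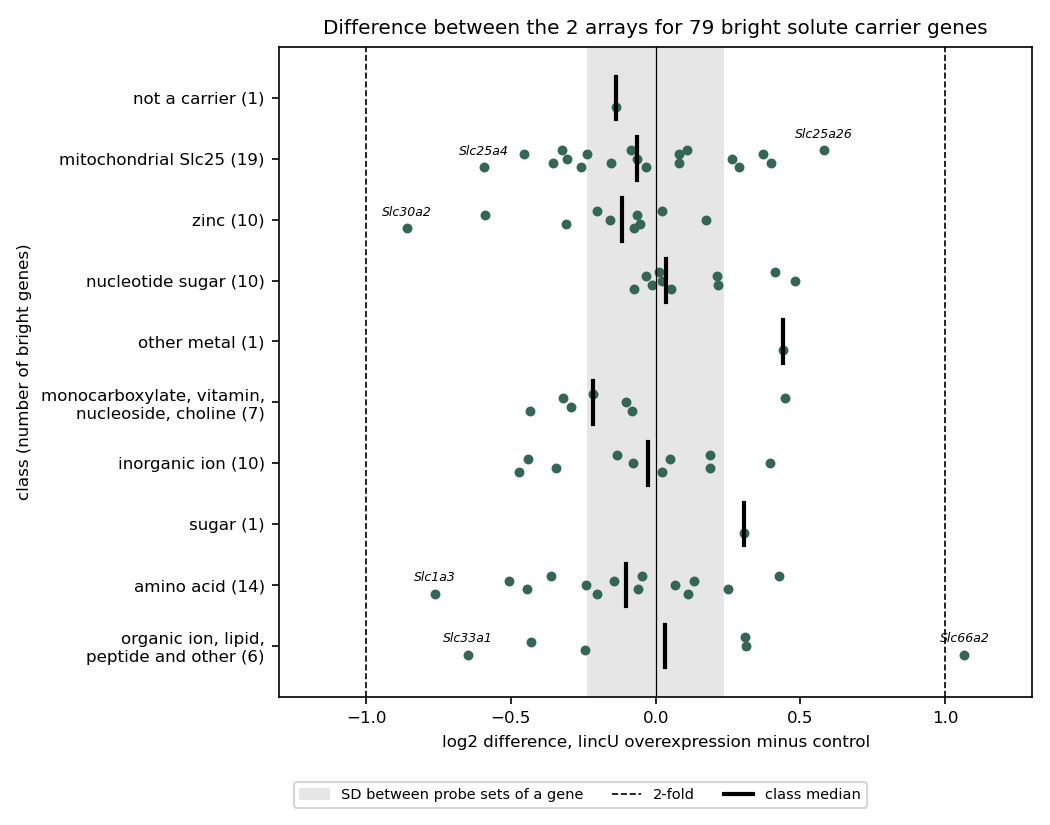
Log2 difference between the arrays (x axis, overexpression minus control) for the 79 bright solute carrier genes by class (y axis), 1 point per gene, with black bars at class medians, dashed lines at 2-fold and a grey band as wide as the probe set SD of 0.23 on each side of 0. Slc66a2 lies past the 2-fold line at 1.07, and Slc30a2 and Slc1a3 lie farthest to the left at -0.86 and -0.76.

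Of the 6 Slc30 zinc exporter genes, all bright, 5 had lower signals in overexpressing cells, 3 of them by more than the SD between probe sets. Their median log2 difference was -0.26, and the count of 5 was the same under each of 3 other scalings of the same arrays. Over the whole zinc class the median was -0.12 over 10 bright genes, 8 lower and 2 higher. Among all bright genes off chromosome 14, 49.2% were lower, and 21.9% were lower by more than the SD between probe sets. Slc30a2, which encodes a loader of zinc into secretory vesicles, had log2 signals of 8.54 and 7.69, a difference of -0.86. In overexpressing cells it was below the array median, so it was bright through the control array alone, which fixes its direction as lower. With genes bright on both arrays the zinc class median was -0.08 over 9 genes. Slc30a4, a further vesicular zinc carrier gene, went from 8.67 to 8.07, a difference of -0.59. Slc30a9, whose product serves mitochondrial zinc, went from 10.36 to 10.05, a difference of -0.31. Slc30a1, the gene of the exporter at the plasma membrane, had 8.78 and 8.57, a difference of -0.20, within the spread between probe sets. Slc30a5 and Slc30a6, carrier genes of the secretory pathway, had differences of 0.02 and -0.08. Each of these genes had 1 probe set, so none has a second measurement.

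Of the 8 measured Slc39 zinc importer genes 4 were bright, and their differences lay between -0.16 and 0.17. Slc39a7, whose product releases zinc from the endoplasmic reticulum, had signals of 11.11 and 11.05. Slc39a6 had 10.92 and 11.10, and its second, dim probe set went the other way, at -0.25. Slc39a13 was dim, with 7.51 in control and a signal under the floor in overexpressing cells, and Slc39a8, also dim, had 6.19 and 7.03; both were picked after their values were seen. The metallothionein genes Mt1 and Mt2, classical zinc-responsive genes, differed by 0.03 and 0.27, and Mtf1, the gene of the metal-responsive transcription factor that drives them, by 0.05.

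The 3 zinc exporter genes Slc30a1, Slc30a2 and Slc30a4 are shown by sequence because Slc30a1 is a textbook target of the MTF1 protein and the other two had the largest differences among its bright genes. The windows are the 250 bases before the start site listed for each gene, from RefSeq on build GRCm38.p6, read 5′ to 3′ along the gene. That of Slc30a2 holds an open reading frame that runs from an atg up to the letters gtaagt, and its matches lie before that atg. Part of this window may therefore be transcribed sequence. Which start sites these cells use was not tested. Capitals mark the core of the metal response element, searched as TGCACNC or TGCGCNC on both strands. Every match shown lies on the strand opposite the gene, so the capitals spell the reverse complement.
Slc30a1, chr1:191906531-191906780, plus strand: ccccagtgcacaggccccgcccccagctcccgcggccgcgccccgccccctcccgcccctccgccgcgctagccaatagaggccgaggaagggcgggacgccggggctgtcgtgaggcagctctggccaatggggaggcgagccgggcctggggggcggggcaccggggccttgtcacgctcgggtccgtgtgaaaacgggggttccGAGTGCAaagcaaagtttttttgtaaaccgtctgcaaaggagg
Slc30a2, chr4:134343216-134343465, plus strand: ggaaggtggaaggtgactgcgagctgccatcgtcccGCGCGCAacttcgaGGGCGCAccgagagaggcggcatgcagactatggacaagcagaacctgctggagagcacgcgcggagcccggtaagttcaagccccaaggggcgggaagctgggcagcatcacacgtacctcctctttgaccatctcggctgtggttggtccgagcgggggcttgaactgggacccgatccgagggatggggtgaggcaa
Slc30a4, chr2:122702664-122702913, minus strand: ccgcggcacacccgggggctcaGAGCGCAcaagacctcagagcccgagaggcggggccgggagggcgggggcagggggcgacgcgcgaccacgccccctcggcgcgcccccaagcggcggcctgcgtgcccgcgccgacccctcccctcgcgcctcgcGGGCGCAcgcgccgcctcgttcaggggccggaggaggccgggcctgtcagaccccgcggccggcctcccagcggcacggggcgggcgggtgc

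The core was found 1 time in the window of Slc30a1 and 2 times in each of the others shown. Of the Slc30 genes not shown, Slc30a5 had 1 match, and Slc30a6 and Slc30a9 had 0. Their log2 differences were 0.02, -0.08 and -0.31 in that order. A match was present in 5 of the 9 bright zinc class genes with a promoter entry, in 6 of their 10 windows. Of all 32851 windows of that length, 21.4% held a match. The windows of Slc30a1, Slc30a2 and Slc30a4 were 71.2%, 64.0% and 82.8% G and C, against a median of 52.4% over all windows. The core also occurred 1 time before Mt1 and 3 times before Mt2, whose signals were not lower. A match describes the letters and is not a measured binding site.

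Amino acid carrier genes had a median log2 difference of -0.10 over 14 bright members, with 9 lower and 5 higher. The Slc38 family of sodium-coupled carriers for glutamine and other neutral amino acids had 4 bright members, all lower. With the arrays centred on their medians 3 of the 4 were lower. Slc38a1 went from 10.01 to 9.50, a difference of -0.51. Slc38a2, the carrier gene induced by amino acid shortage, had 13.00 and 12.86, and Slc38a4, an imprinted gene, 11.97 and 11.73, differences of -0.14 and -0.24. These genes neighbour each other on chromosome 15 in the order Slc38a1, Slc38a2, Slc38a4. The 2 bright genes before them, Arid2 and Scaf11, picked for their position, differed by -0.70 and -0.46, and the next bright gene after them, Rpap3, by 0.35. The 209 bright genes of that chromosome had a median of -0.03. Slc38a10 had -0.05 on the probe set used and 0.44 on its other bright one, so its direction depends on the probe set.

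Heteromeric carriers pair a heavy subunit, encoded by Slc3a2, with a light one. Slc3a2 had signals of 11.99 and 11.63, a difference of -0.36. Its partners Slc7a5, the carrier of large neutral amino acids that supports mTORC1 signalling, and Slc7a6 had differences of 0.07 and -0.20. Slc7a3, a carrier gene for arginine and lysine, had 12.01 and 12.15, a difference of 0.13 that lies within the spread between probe sets. Of the 11 Slc7 genes measured these 3 were bright. Slc7a11, which encodes the cystine carrier, was under the floor in control cells, with 4.68 and 6.14.

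The largest difference among bright amino acid carrier genes was in Slc1a3, the gene of a glutamate carrier best known from glia. Its signals were 8.25 and 7.49, a difference of -0.76, and it was bright through the control array alone. Its second, dim probe set had -0.34. Slc6a15, a carrier gene for branched-chain amino acids, went from 9.06 to 8.62, a difference of -0.45. Slc6a8, the creatine carrier gene, was higher by 0.43, from 9.67 to 10.10, and by 0.25 on its other bright probe set. Slc1a5, the gene of a glutamine carrier, was dim on both arrays at 7.22 and 7.70.

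Genes of amino acid sensing by mTORC1 were set beside the carriers, in a list that also holds the kinase gene Mtor and Atf4. Of 19 listed, 15 were measured and 12 were bright, 8 higher and 4 lower, with a median log2 difference of 0.18. Lamtor2, a subunit of the lysosomal Ragulator scaffold, differed by 0.76. Atf4, the transcription factor gene of the amino acid stress response, differed by -0.37. The core of the amino acid response element, searched as TGATGNAA on both strands, was in 0 of the 13 promoter windows found for 8 bright amino acid carrier genes and in 3.45% of all windows. That says only that these letters are not in those windows.

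Mitochondrial carrier genes had a median of -0.06 over 19 bright members, 11 lower and 8 higher. Among the 8, Slc25a14 and Slc25a25 were bright in overexpressing cells alone, which fixes their direction as higher. With genes bright on both arrays the median was -0.09 over 17 genes. The 2 measured ADP/ATP exchanger genes of the inner membrane, Slc25a4 and Slc25a5, behaved differently on these arrays. Slc25a4, the form known from heart and muscle, went from 13.61 to 13.02, a difference of -0.59, and its second bright probe set from 13.40 to 12.59, a difference of -0.81. Both are of a type that can bind several transcripts, and its remaining probe set was under the floor on both arrays. Slc25a5, the form known from dividing cells, had 14.36 and 14.27, a difference of -0.09. Its 8 bright probe sets lay between -0.15 and 0.23, all above the 2 bright ones of Slc25a4. Most of the 8 can also bind several transcripts. Slc25a3, the phosphate carrier gene that also feeds ATP synthesis, had 14.09 and 14.06, and Slc25a39, linked to mitochondrial glutathione, 13.79 and 13.87. Slc25a3 changed sign with the arrays centred and Slc25a39 with quantile normalization.

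Slc25a26, which encodes the mitochondrial carrier of S-adenosylmethionine, had the largest upward difference among the bright genes of the family, 8.23 and 8.81, with a difference of 0.58 on 1 probe set. That probe set is of a type that can bind several transcripts. Slc25a20, the carnitine and acylcarnitine carrier gene, was higher by 0.40 and 0.52 on its 2 probe sets. Slc25a46, whose product sits in the outer membrane and shapes mitochondrial dynamics, went from 10.73 to 10.27, a difference of -0.45. Slc25a51, the NAD carrier gene, and Slc25a33, a pyrimidine nucleotide carrier gene, differed by -0.36 and -0.32. A second, dim probe set of Slc25a51 went the other way, at 0.38. Slc25a44, a branched-chain amino acid carrier gene, had -0.24 on the probe set used and -0.79 on another.

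**Figure D3:**
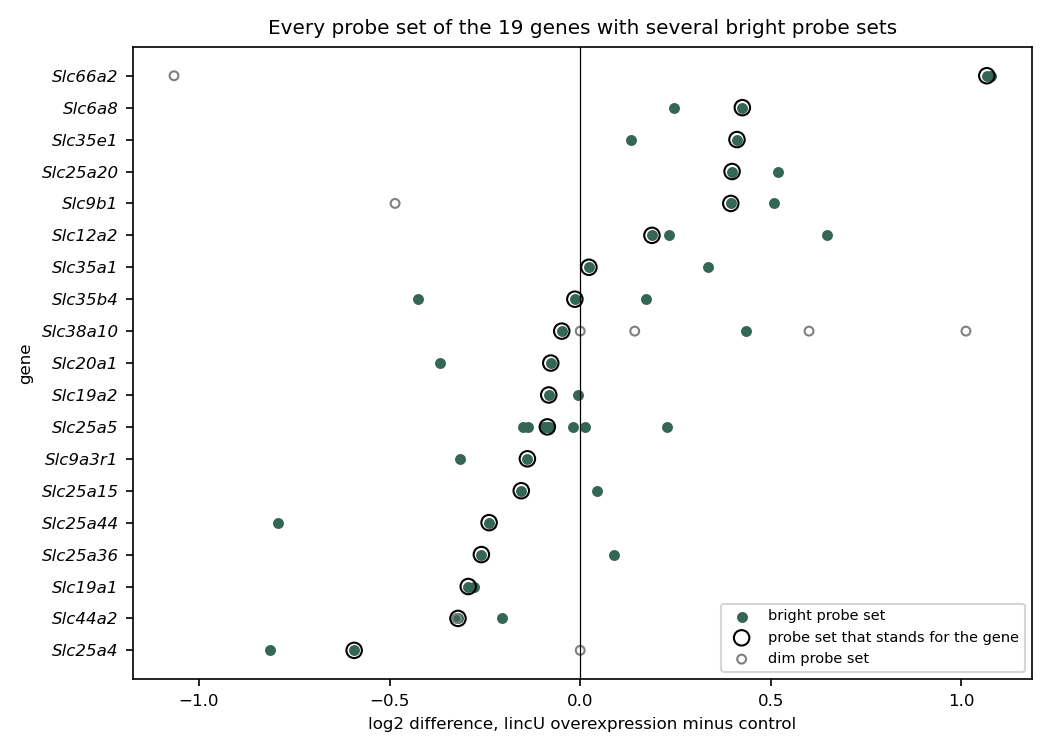
Log2 difference between the arrays (x axis, overexpression minus control) on every probe set of the 19 solute carrier genes (y axis) with several bright probe sets, as filled points for bright and open grey points for dim probe sets, with a ring around the one that stands for the gene. The 8 points of Slc25a5 cluster near 0, the bright ones of Slc25a4 lie at -0.59 and -0.81 with its dim one set to 0, and the dim probe set of Slc66a2 lies on the opposite side from its 2 bright ones.

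The monocarboxylate, vitamin, nucleoside and choline class had 7 bright genes, 6 of them lower, with a median log2 difference of -0.22. The same 6 to 1 count was found under each of 3 other scalings. Slc16a1, the main lactate and pyruvate carrier gene of dividing cells, had signals of 13.23 and 13.02, a difference of -0.22. Emb, which encodes a chaperone of monocarboxylate carriers, differed by -0.36. Slc16a6, of the same family as Slc16a1, went from 9.50 to 9.06, a difference of -0.44. The folate carrier gene Slc19a1 differed by -0.29 and -0.28 on its 2 bright probe sets, and the thiamine carrier gene Slc19a2 had 11.51 and 11.43. Slc44a2, a choline carrier-like gene, went from 10.38 to 10.06. Slc44a1, the gene of a choline carrier, was the higher one, from 10.53 to 10.98. Its dim second probe set went from 6.79 to below the floor, so that the mean over both was -0.35.

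Nucleotide sugar carrier genes differed little on the probe sets used. Their 10 bright members had a median of 0.04 and an SD of 0.19, with 7 higher and 3 lower. With the arrays centred on their medians 9 were higher and 1 was lower. Slc35b1, the carrier gene that exchanges ATP for ADP across the endoplasmic reticulum, had signals of 11.22 and 11.43, a difference of 0.21. Slc35a1, the CMP-sialic acid carrier gene, had 10.13 and 10.15, and 0.34 as the difference on its other bright probe set. Slc35a4 had 9.55 and 9.51. The 3 bright probe sets of Slc35b4 lay between -0.43 and 0.17. The largest differences among the bright members were in Slc35a5, from 8.47 to 8.95, and Slc35e1, from 8.96 to 9.37. On its other bright probe set Slc35e1 differed by 0.13. Slc35a5 had 4 further, dim probe sets, and the mean over all was 0.13. Slc35f6 was bright in overexpressing cells alone, with 7.73 and 7.94, and its dim second probe set had -0.31.

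Of 10 bright inorganic ion carrier genes 5 were higher and 5 lower, with a median of -0.03 that ranged from -0.24 to 0.04 over the alternative settings. One of the 10, Slc4a1ap, encodes an adaptor protein and not a carrier. The phosphate symporter genes Slc20a1 and Slc20a2 had 12.29 and 12.21, and 10.61 and 10.27, differences of -0.08 and -0.34. On its other bright probe set Slc20a1 differed by -0.37. Slc12a2, the sodium-potassium-chloride cotransporter gene, had 11.24 and 11.43, and its 3 bright probe sets lay between 0.19 and 0.65. Slc9b1, a sodium-proton exchanger gene, was higher by 0.40 and 0.51 on its 2 bright probe sets, with -0.49 on a dim one. Slc4a2, a chloride-bicarbonate exchanger gene, and Slc8b1, the mitochondrial sodium-calcium exchanger gene, differed by -0.47 and -0.44, and both were bright through the control array alone.

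Only 1 bright carrier passed 2-fold, Slc66a2, a PQ-loop membrane protein gene of the organic ion, lipid, peptide and other class. Its log2 signals were 8.47 and 9.53, a difference of 1.07. A second bright probe set went from 7.75 to 8.82, a difference of 1.08. Its dim probe set was below the array median on both arrays and went the other way, from 6.91 to 5.84. The probe sets that were higher are of a type that can bind several transcripts, and the lower one is not, so the direction of Slc66a2 depends on which is taken.

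In the same class, Slc33a1, which brings acetyl-CoA into the endoplasmic reticulum, went from 9.14 to 8.49, a difference of -0.65. Slc27a2, the gene of a very long-chain acyl-CoA synthetase, went from 10.62 to 10.18, a difference of -0.43. Slc27a4, a fatty acid carrier gene, and Slc15a4, the histidine and peptide carrier gene of lysosomes, were each higher by 0.31. Slc47a1, a multidrug and toxin extruder gene, had 9.67 and 9.43. In the classes with 1 bright member, the copper importer gene Slc31a1 went from 8.50 to 8.94, a difference of 0.44. The sugar phosphate exchanger gene Slc37a1 had 7.84 and 8.14, and was bright in overexpressing cells alone. Slc9a3r1, a scaffold gene that carries an Slc symbol without being a carrier, had 11.31 and 11.17.

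**Figure D4:**
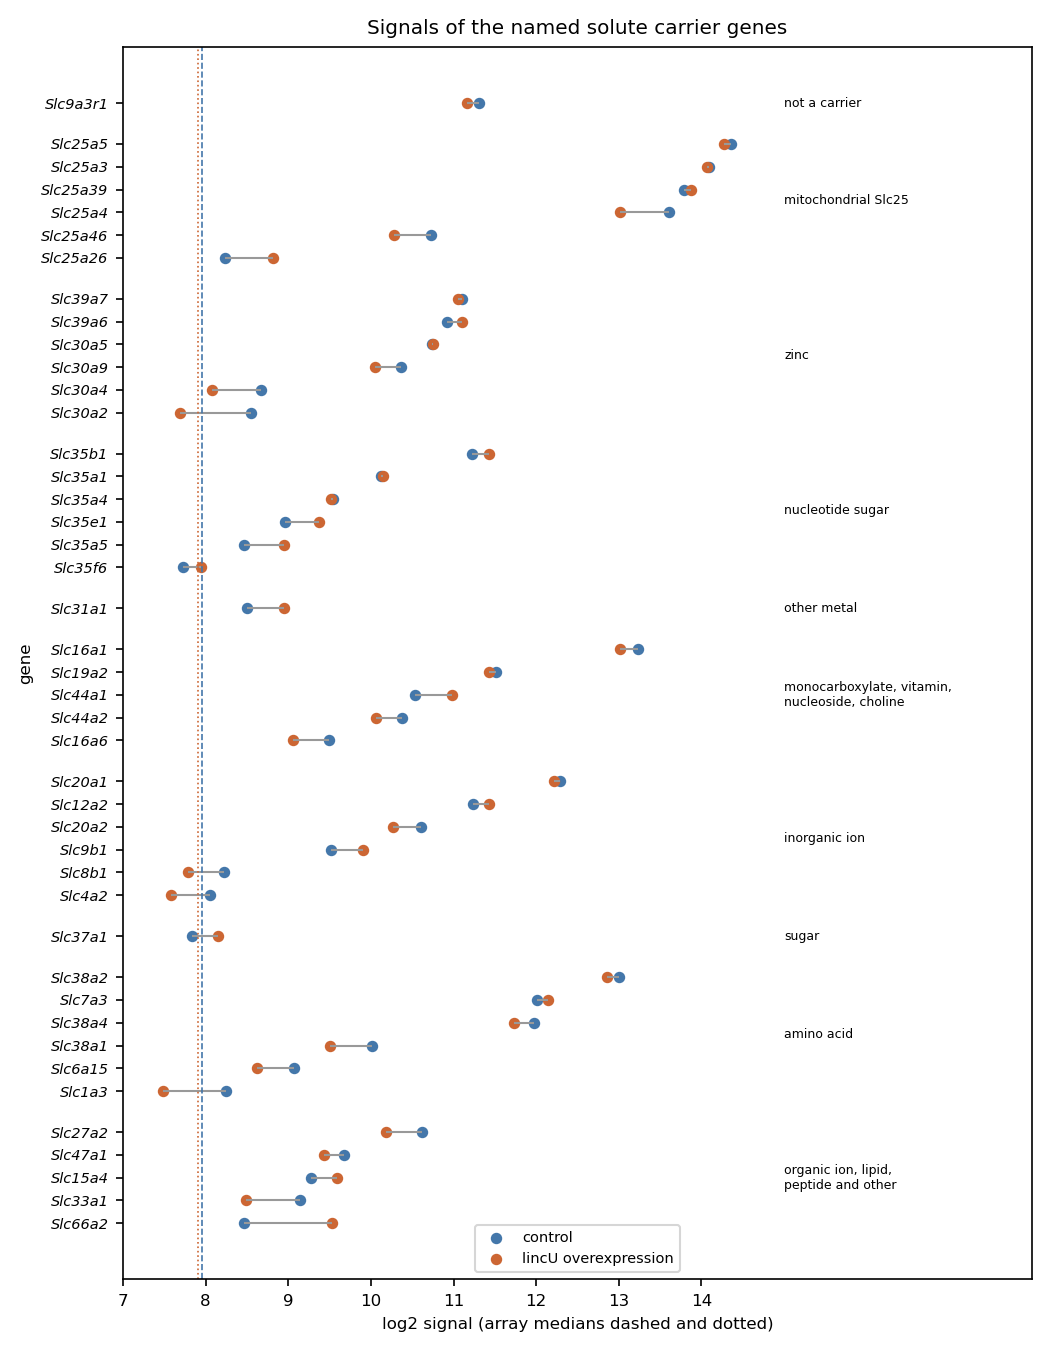
Log2 signal (x axis) in control and lincU-overexpressing cells of the solute carrier genes named by rule (y axis), grouped by class, with a grey bar joining the 2 arrays and vertical lines at the array medians. The widest bars are those of Slc66a2, Slc30a2 and Slc1a3, and the latter 2 cross below the medians in overexpressing cells.

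Of the 135 dim carrier genes, 3 had a log2 difference of at least 1 and 5 of at most -1, and in 5 of these 8 one array was under the floor, so the size depends on where the floor is set. Among all 4548 dim genes off chromosome 14, 1.43% were at least 2-fold higher and 3.32% lower by as much. Among them, chosen after their values were seen, Slc27a1, a fatty acid carrier gene, had 7.34 and 5.53. Slc38a3, a glutamine carrier gene, had 5.32 and 7.09, and Slc27a3 had 5.78 and 7.01. The iron exporter gene Slc40a1, also picked later, was just under the median in control cells, with 7.93 and 7.07, and its 2 probe sets gave -0.86 and -0.85.

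Other transport families were described in the same way. The ABC transporters, which use ATP directly, had 16 bright genes of 30 measured, 8 higher and 8 lower, with a median log2 difference of 0.02 and 0 past 2-fold. Their lowest and highest differences were those of Abcg1, a sterol exporter gene, at -0.69 and Abcb6, a mitochondrial porphyrin carrier gene, at 0.67. The Slco organic anion carriers had 0 bright genes of 10 measured. Of the sodium pump subunit genes, Atp1b1 and Atp1b3 were bright and differed by 0.33 and -0.15.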

How the data were processed

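The deposited table held log2 signals, 1 value per probe set and array, for 16994 probe sets. MAS5 and affy are named, without version or role, per the submitters' processing notes, and no source used here gives the scaling target. That the deposited values are log2 was read from their range. Probe sets were named through the platform annotation, with symbols updated by gene ID from RefSeq (GRCm38.p6). Of these, 15273 had a single name, of which 15252 matched RefSeq. Further Slc genes were not analysed here.

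Values were used as deposited, and signals below a floor of 5.73 and 5.65, the 25th percentile over named probe sets on each array, were raised to it. Below it on both arrays the difference was set to 0. Substrate classes were mostly assigned by family, so a class name need not hold for each of its genes, as for Slc35b1. Genes named were those past 2-fold and, per class, the 3 bright genes of highest signal and the 3 with the largest differences, 43 in all; others are named for their role, or as picked later. The members, lists and rules were chosen with earlier results of these data known. With 1 array per group, no test was run, and precision is limited by how few arrays there are. Promoter entries matched 169 of 214 genes. The steps were tested on simulated data. Python 3.11.15 and pandas 2.3.3 were used.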

Additional observations from a re-analysis of the deposited data

How the results depend on the processing

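Scaling, floor, brightness, probe sets, threshold and the chromosome 6 run from Rad18 to Resf1 were each changed in turn, giving 12 alternatives, 1 of which (leaving out adaptor and scaffold genes) was chosen after the data were examined. The 71 genes above both medians became 60 when probe sets were averaged and 54 when those of shared or mixed type were dropped, which left 192 genes. Of these settings, 3 left 0 genes at least 2-fold higher, namely probe sets averaged, no shared or mixed probe sets, and brightness at the 75th percentile. At 1.5-fold, 5 genes were lower. Without shared or mixed probe sets Slc66a2 stood at -1.07, on its 1 remaining, dim probe set. The median over bright carriers lay between -0.08 and -0.01, and the 7 class medians with at least 5 bright genes moved by less than 0.23. The inorganic ion median was 0.03 with centring and 0.04 with genes bright on both arrays, -0.18 with probe sets averaged and -0.24 without shared or mixed ones. Of 48 genes recomputed, 9 changed sign in some setting. No replicate could be left out, and with 1 array per group the arrays and the groups cannot be told apart. The chromosome 6 run held 2 carriers, neither bright. Genes near the array median are limited by signal over background, and their calls rest on 1 array.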
